A study of Mus musculus with 6 samples.

Results

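The miR-106b/93/25 cluster consists of 3 miRNA hairpins that lie side by side in 1 intron of Mcm7, a gene of the DNA replication machinery. Its members were chosen by name, as the 5p and 3p arms of miR-106b, miR-93 and miR-25 (mmu-miR-106b-5p, mmu-miR-106b-3p, mmu-miR-93-5p, mmu-miR-93-3p, mmu-miR-25-5p and mmu-miR-25-3p, written without the species prefix from here on), and all 6 were found among the 1978 known mature mouse miRNAs counted. They were measured in c-kit+ cardiac progenitor cells, that is heart cells carrying the stem cell factor receptor c-kit, taken by magnetic sorting from enzyme-digested hearts of wild-type male C57BL/6 mice aged 4 to 6 weeks. The control group has 3 libraries labelled 0 hours and the hypoxia group 3 libraries labelled 12 hours, the time the cells spent in hypoxic culture. Neither group carries a transgene or a deletion. The treatment label reads hypoxia in both groups, and the sources used here give no oxygen level. Unless the control cells were kept equally long, hypoxia and time in culture cannot be told apart. The sample titles call the libraries of each group biological replicates. The sources used here do not say how many animals or cultures went into a library. Whether the spread of these libraries is that between animals is therefore not known, and p-values measure only that spread. The extraction protocol speaks of RNA from exosomes, while the design text speaks of cells. Which of these was sequenced was not settled.

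Each column of the count table is named by a digit, 0 or 1, with a letter from A to C. Columns starting with 0 were taken as control (0 hours) and those starting with 1 as hypoxia, and every direction given rests on that reading. The letters match no label, and libraries are called here by their group and letter. Totals of known miRNA counts ran from 12285970 to 16975987 per library. No miRNA defines a c-kit+ progenitor, so the label could not be checked on a marker of its own. Summed endothelial markers (miR-126a arms) reached 200685 to 249670 CPM. CPM are counts per 1000000 counts of the tested miRNAs, on library sizes adjusted by TMM scaling. Summed fibroblast and smooth muscle markers reached 26075 to 57426 CPM, and summed cardiomyocyte markers 77.2 to 176.

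The protein made from Mcm7 is a subunit of the helicase that opens DNA at replication origins, and the gene is driven by E2F and MYC factors in dividing cells. The intronic hairpins are transcribed with it. A miRNA finds its target mRNAs mainly through its seed, bases 2 to 8 of the mature strand. miR-106b-5p and miR-93-5p carry the seed of miR-17-5p and are known to repress the cell cycle inhibitor Cdkn1a (p21), while miR-25-3p carries the seed of miR-92a-3p and is known to repress the pro-apoptotic gene Bcl2l11 (Bim). In heart muscle miR-25-3p has also been described as a repressor of the calcium pump Atp2a2. A hairpin is cut into a duplex of a 5p and a 3p arm, of which one is usually kept and the other degraded.

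The 3 hairpins are shown 5′ to 3′ with both mature arms in capitals, because the findings turn on which arm each hairpin yielded. The sequences are those of RefSeq on GRCm38.p6.
Mir106b: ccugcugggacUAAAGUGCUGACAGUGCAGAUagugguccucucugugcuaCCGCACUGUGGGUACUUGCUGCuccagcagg
Mir93: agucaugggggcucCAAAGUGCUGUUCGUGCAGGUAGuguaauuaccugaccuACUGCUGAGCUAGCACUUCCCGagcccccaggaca
Mir25: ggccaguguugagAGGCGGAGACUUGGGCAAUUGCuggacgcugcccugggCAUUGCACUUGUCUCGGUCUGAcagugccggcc

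All 3 hairpins lie on the minus strand of chromosome 5 in GRCm38. Mir106b spans 138165737 to 138165818, Mir93 spans 138165523 to 138165610, and Mir25 spans 138165321 to 138165404. In the main Mcm7 transcript (Mcm7-201, 15 exons, GENCODE M21) they fall in intron 13, which runs from 138165162 to 138165909 and is 748 bases long. From first to last base the cluster spans 498 bases of that intron, with 126 bases between Mir106b and Mir93 and 118 bases between Mir93 and Mir25. A second annotated Mcm7 transcript, Mcm7-202, retains part of the intron in an exon that covers Mir93 and Mir25 but not Mir106b.

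**Figure D1:**
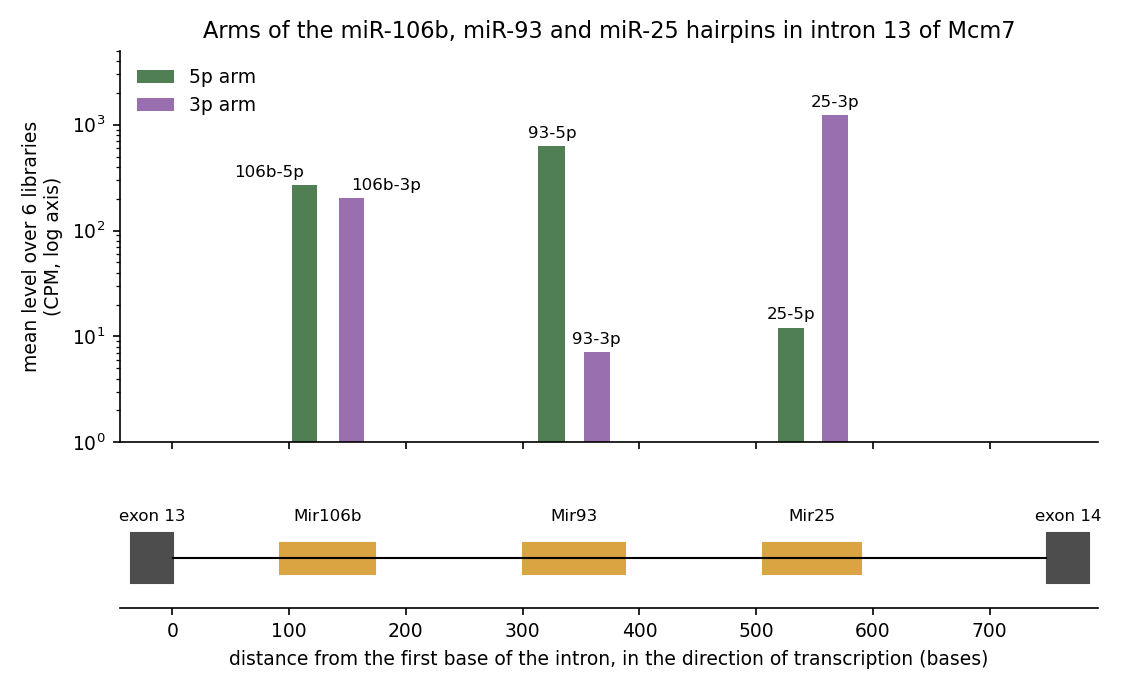
Mean level of each mature arm over the 6 libraries (CPM, log axis) at its place in intron 13 of Mcm7, with distance in bases from the first base of the intron along the direction of transcription. Boxes below are the hairpins, and exons 13 and 14 are drawn only in part. The green 5p bar is high for miR-93 and the purple 3p bar for miR-25. Both arms of miR-106b (202 and 269 CPM) lie below these bars and above the low arms of miR-93 and miR-25.

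The mature arms are shown with the seed in capitals, grouped by seed, since the seed decides which miRNAs can act on the same targets. Of the 1978 known miRNAs, 1679 matched a RefSeq sequence by name, and shared seeds were sought among these. The first group holds miR-106b-5p and miR-93-5p with the other counted miRNAs of that seed.
miR-106b-5p: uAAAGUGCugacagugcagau
miR-93-5p: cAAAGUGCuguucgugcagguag
miR-17-5p: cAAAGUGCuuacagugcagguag
miR-20a-5p: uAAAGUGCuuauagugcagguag
miR-106a-5p: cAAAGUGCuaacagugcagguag
miR-20b-5p: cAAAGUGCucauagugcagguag

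The second group holds miR-25-3p with the other miRNAs of its seed that passed the expression filter.
miR-25-3p: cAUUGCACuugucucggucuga
miR-92a-3p: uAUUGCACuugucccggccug
miR-92b-3p: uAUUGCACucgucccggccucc
miR-32-5p: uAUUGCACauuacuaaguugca

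The remaining arms of the cluster shared their seed with no other matched miRNA of the table.
miR-106b-3p: cCGCACUGuggguacuugcugc
miR-93-3p: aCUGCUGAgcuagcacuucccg
miR-25-5p: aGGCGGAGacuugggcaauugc

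Counted from base 1 at the 5′ end over 21 bases, miR-106b-5p differed at 5 positions from miR-93-5p of its own intron (U1C, A11U, C12U, A13C and A20G, with the base of miR-106b-5p first). It differed at only 3 positions from miR-17-5p (U1C, G10U and A20G) and from miR-20a-5p (G10U, C12U and A20G), which are encoded on chromosome 14. miR-25-3p differed at 3 positions from miR-92a-3p (C1U, U14C and U18C). The sources used here do not say how reads matching several miRNAs were assigned. No cluster arm or seed relative with at least 50 counts in every library had counts within 1% of another miRNA's in all 6 libraries. No sign was thus seen of rows that share all their reads, but reads shared in part would not show in this way.

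Levels are CPM scaled to TMM-adjusted library sizes. The mature arms are 21 to 23 bases long and 1 read stands for 1 whole miRNA, so CPM were not divided by length. Capture of different small RNA sequences can differ during library preparation, which was not tested here. Differences in level between arms are therefore less certain than differences of 1 arm between libraries. In RNA from many cells, fewer cells that make a miRNA and less of it per cell cannot be told apart.

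The cluster held a small part of the known miRNA counts. Its 6 arms together held 0.242%, 0.192% and 0.250% of known miRNA counts in control A, B and C, against 0.281%, 0.213% and 0.241% in hypoxia A, B and C. The widest exact 95% interval was that of control A, 0.239% to 0.245%, and such intervals cover counting error only. The groups overlapped, and the difference of 0.0175 percentage points was smaller than the spread within each group (n = 3 each, with an SD of 0.0313 for control and 0.0341 for hypoxia). A two-sided exact permutation test gave p = 0.6, where 0.1 is the smallest it can give. Library B was the lowest in both groups.

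By mean level the arms ranked in the order miR-25-3p (1231 CPM), miR-93-5p (631), miR-106b-5p (269), miR-106b-3p (202), miR-25-5p (12.1) and miR-93-3p (7.11). Among all known miRNAs miR-25-3p held place 60, miR-93-5p place 82, miR-106b-5p place 120 and miR-106b-3p place 132, while miR-25-5p and miR-93-3p held places 341 and 399. Over the 6 libraries no neighbours in this order overlapped except the 2 arms of miR-106b. miR-25-3p alone made up 52.4% of the cluster's counts (47.6% to 54.6% over the libraries), and miR-93-5p another 26.8% (24.4% to 28.2%).

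The first hairpin, miR-106b, kept both arms. Its 5p arm, which carries the miR-17 seed, stood at 266, 215 and 248 CPM in control A, B and C, against 306, 231 and 347 CPM in hypoxia A, B and C. The 3 hypoxia libraries did not all lie above the control ones, since hypoxia B was below control A and control C. Within same-lettered libraries the hypoxia value was higher each time, by 0.20 (A), 0.10 (B) and 0.49 (C) on the log2 scale.

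Means of miR-106b-5p were 243 ± 26.0 CPM for control and 295 ± 58.8 CPM for hypoxia (SD, n = 3 each). The fitted log2 fold change was 0.28 (SE 0.21, 95% interval -0.20 to 0.76), which was not called by edgeR's quasi-likelihood test over all tested miRNAs (adjusted p = 0.92). The value rested in part on hypoxia C, without which it was 0.11, and it was 0.40 without hypoxia B and 0.17 without control B. With the column letter as a replicate block it was 0.26 (SE 0.12, 95% interval -0.0088 to 0.53, edgeR adjusted p = 0.25). Among the 6 arms this was the widest departure from 0, and it was not past the test in either fit.

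The 3p arm of the same hairpin gave 221, 176 and 216 CPM in control A, B and C, against 201, 201 and 199.7 CPM in hypoxia A, B and C. The hypoxia values lay within the control range and close to each other, with an SD of 0.741 CPM (n = 3). The log2 fold change was -0.03 (SE 0.18, 95% interval -0.43 to 0.38). It was 0.031 under scaling to library size only.

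The second hairpin, miR-93, was read almost entirely as its 5p arm. miR-93-5p, the other carrier of the miR-17 seed, stood at 586, 578 and 668 CPM in control A, B and C, against 743, 574 and 638.5 CPM in hypoxia A, B and C. Hypoxia A was the highest library and hypoxia B the lowest, so the control values lay inside the hypoxia range. Means were 611 ± 49.8 CPM and 652 ± 85.2 CPM (SD, n = 3 each), and the log2 fold change was 0.09 (SE 0.17, 95% interval -0.30 to 0.49). It turned to -0.013 without hypoxia A.

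miR-93-3p, the arm usually degraded, was read 76 to 121 times per library. Its levels were 6.15, 7.99 and 7.70 CPM in control A, B and C, against 7.09, 5.40 and 8.35 CPM in hypoxia A, B and C. The highest and the lowest value were both in the hypoxia group. The log2 fold change was -0.07 (SE 0.25, 95% interval -0.65 to 0.50).

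The third hairpin, miR-25, showed the opposite arm choice. miR-25-3p, which carries the miR-92 seed, was the cluster's most abundant arm, at 1315, 1154 and 1255 CPM in control A, B and C, against 1369, 1199 and 1097 CPM in hypoxia A, B and C. The groups overlapped almost fully, with hypoxia A the highest library and hypoxia C the lowest. Means were 1241 ± 81.4 CPM for control and 1222 ± 137 CPM for hypoxia (SD, n = 3 each). The log2 fold change was -0.02 (SE 0.16), and its 95% interval of -0.39 to 0.34 corresponds to folds of 0.764 to 1.27.

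miR-25-5p, read 136 to 230 times per library, stood at 12.1, 10.5 and 14.6 CPM in control A, B and C, against 10.3, 10.5 and 14.4 CPM in hypoxia A, B and C. Library C was the highest of its group in both groups. The log2 fold change was -0.08 (SE 0.24, 95% interval -0.62 to 0.46).

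**Figure D2:**
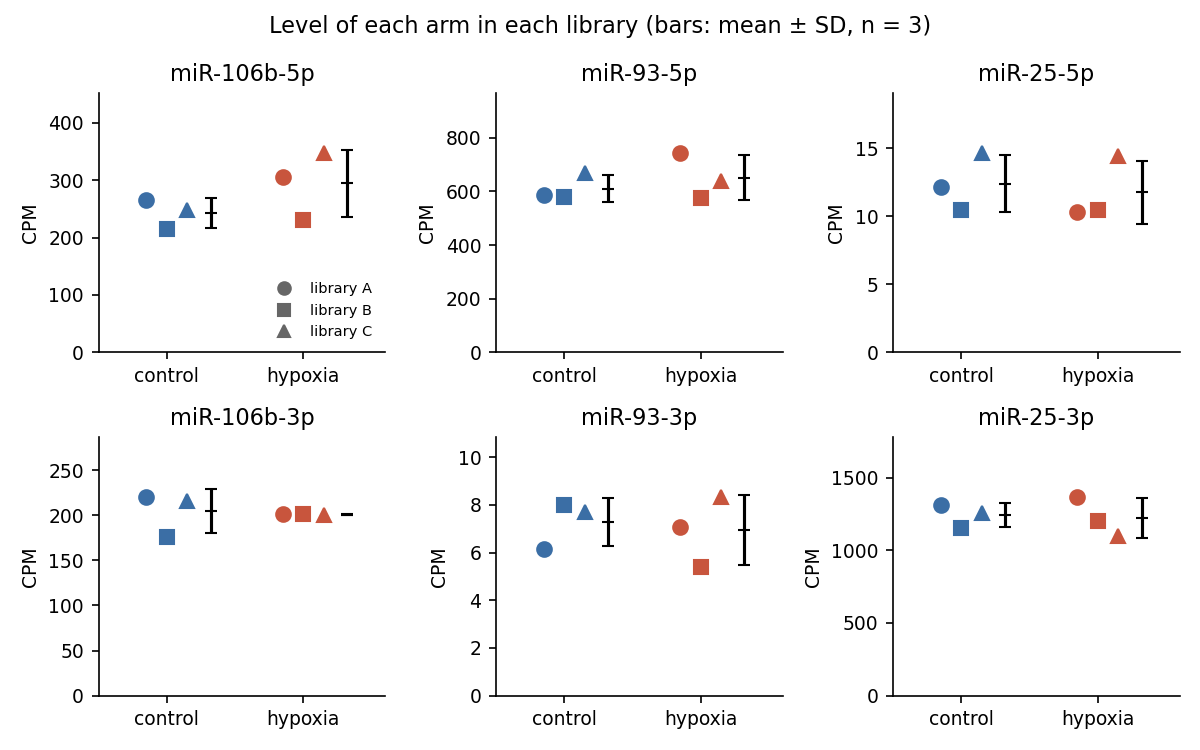
Level of each cluster arm (CPM, axis from 0) in the control and hypoxia libraries, 1 point per library with the symbol giving its letter, and the mean ± SD of 3 libraries beside each group. The groups overlap in all 6 panels. The 3 hypoxia libraries of miR-106b-3p lie at 199.7 to 201 CPM, and those of miR-106b-5p spread from 231 to 347 CPM.

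Across the cluster, all 6 arms passed the expression filter, 0 of 6 were called by edgeR's quasi-likelihood test, and 0 of 6 had groups that did not overlap. Over all 619 tested miRNAs 0% were called, 6.79% had an unadjusted p below 0.05 and 12.9% had groups that did not overlap. With the replicate block edgeR called 2.26% (14 miRNAs) and 21.3% had an unadjusted p below 0.05, while 0 of the 6 arms reached either (smallest adjusted p = 0.25 for miR-106b-5p). The cluster had 2 of 6 log2 fold changes above 0 (5 of 6 under scaling to library size only) and a median of -0.02, against 51.2% above 0 and a median of 0.01 over all tested miRNAs. For comparison, miR-210-3p, the hypoxia-inducible miRNA that the series title names, stood at 188, 296 and 212 CPM in control A, B and C, against 674, 468 and 440 CPM in hypoxia A, B and C, so that its groups did not overlap. Its log2 fold change was 1.19 (SE 0.25, 95% interval 0.61 to 1.76), which edgeR called with the replicate block (adjusted p = 0.024) and not without it (adjusted p = 0.65).

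The abundant arms also varied little from library to library. The SD of log2 CPM over the 6 libraries was 0.12 for miR-25-3p, 0.11 for miR-106b-3p and 0.15 for miR-93-5p, and 0.26 for miR-106b-5p. The median over the 362 tested miRNAs with at least 10 CPM was 0.28. From the lowest to the highest library miR-25-3p differed 1.25-fold, miR-93-5p 1.29-fold and miR-106b-5p 1.61-fold.

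Arm choice was compared within each library, where no scaling is needed, as the log2 ratio of 5p to 3p counts (pseudocount 0.5). For miR-93 the ratio was 6.56, 6.17 and 6.43 in control A, B and C, against 6.70, 6.72 and 6.25 in hypoxia A, B and C. This corresponds to between 72.0 and 105.8 reads of the 5p arm for each read of the 3p arm. For miR-25 it was -6.75, -6.78 and -6.42 in control A, B and C, against -7.04, -6.83 and -6.24 in hypoxia A, B and C, which is 75.8 to 132 reads of the 3p arm for each of the 5p arm. These neighbouring hairpins of 1 intron were thus read from opposite arms in all 6 libraries.

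For miR-106b the log2 ratio was 0.27, 0.29 and 0.20 in control A, B and C, against 0.60, 0.20 and 0.80 in hypoxia A, B and C. The 5p arm was the more abundant one in all 6 libraries, by 1.15-fold to 1.74-fold. Hypoxia A and C lay above all control libraries, and hypoxia B lay among them. The means differed by 0.28 (control 0.25 ± 0.0471, hypoxia 0.53 ± 0.304, SD, n = 3 each), which was less than the SD of the hypoxia group (exact permutation p = 0.3). The difference was 0.15 without hypoxia C and 0.45 without hypoxia B. For miR-93 and miR-25 the group means differed by 0.17 and -0.06, with exact permutation p = 0.5 and 0.8. Leaving out 1 library moved the first to between 0.063 (without control B) and 0.33 (without hypoxia C), and turned the sign of the second in 3 of 6 cases.

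The proportions between hairpins were similar in all libraries. With both arms summed, miR-25 exceeded miR-93 by 1.72-fold to 2.24-fold and miR-106b by 2.03-fold to 2.97-fold. The log2 ratio of miR-25 to miR-106b was 1.45, 1.57 and 1.45 in control A, B and C, against 1.44, 1.49 and 1.02 in hypoxia A, B and C. Hypoxia C was the lowest, and the difference of -0.17 between group means was within the spread between hypoxia libraries (SD 0.256, exact permutation p = 0.4). Within same-lettered libraries it was -0.0015 (A), -0.09 (B) and -0.43 (C), and an exact sign-flip test over these pairs gave p = 0.25, the smallest it can give. The difference between means was -0.026 without hypoxia C, and -0.29 when only the more abundant arm of each hairpin was counted. The ratio of miR-93 to miR-106b ran from 1.18 to 1.50, with a log2 difference between groups of -0.06 (-0.17 from the more abundant arms alone, exact permutation p = 0.6 and 0.5), and for miR-25 to miR-93 this difference was -0.11 (exact permutation p = 0.4). The latter ran from -0.043 without control A to -0.19 without hypoxia B.

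**Figure D3:**
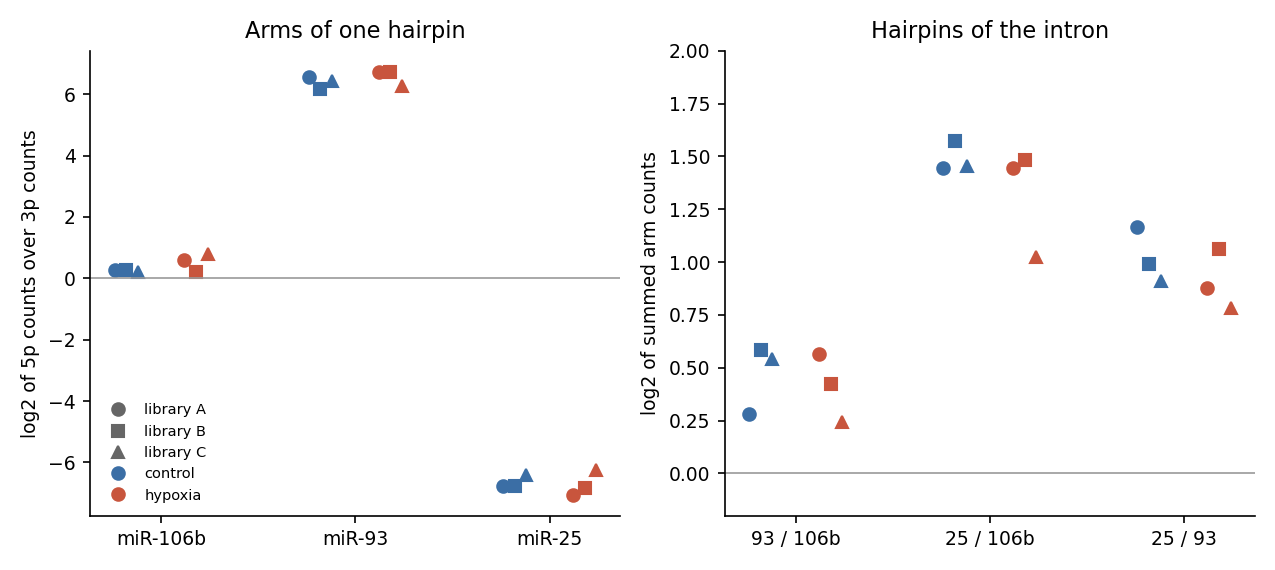
Left, log2 of 5p over 3p counts for each hairpin. Right, log2 ratio between hairpins with both arms summed. Each point is 1 library, with blue for control, red for hypoxia and the symbol for the letter. The left panel shows miR-93 near 6.5, miR-25 near -6.7 and miR-106b just above 0, and control and hypoxia points overlap in every column.

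By seed, the cluster supplied a large share of 2 pools. The pool of the miR-17 seed held 7 miRNAs of the table, of which 6 were read. It summed to 2360 ± 175 CPM for control and 2539 ± 391 CPM for hypoxia (SD, n = 3 each). miR-106b-5p and miR-93-5p together made up 38.5%, 34.3% and 35.9% of it in control A, B and C, against 36.6%, 38.2% and 37.2% in hypoxia A, B and C. The groups overlapped, and the difference of 1.15 percentage points was smaller than the control SD of 2.12 (exact permutation p = 0.5). It was 0.193 without control B, 0.714 without hypoxia B and 2.29 without control A.

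Most of the remaining pool came from miR-20a-5p (36.3% on average) and miR-17-5p (26.5%), both of the miR-17-92 cluster. miR-106a-5p and miR-20b-5p of the X-linked miR-106a-363 cluster contributed 0.255% and 0.152%, and miR-6383 was at 0 counts in all libraries. Log2 fold changes were 0.08 for miR-20a-5p (SE 0.18) and 0.07 for miR-17-5p (SE 0.19), beside the 0.09 of miR-93-5p. Without control A they were -0.0079 and -0.030, and without hypoxia A -0.035 and -0.026. The rare miR-20b-5p had 2.83, 3.23 and 2.80 CPM in control A, B and C, against 5.11, 3.74 and 4.72 CPM in hypoxia A, B and C. It was the only tested miRNA of this seed whose groups did not overlap, where 7.43% of tested miRNAs were higher in that way, and its log2 fold change of 0.61 (SE 0.27) was not called (edgeR adjusted p = 0.72, and 0.21 with the replicate block). No miRNA of this seed was called in either fit.

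The pool of the miR-25-3p seed held 6 miRNAs, of which 5 were read, and summed to 2509 ± 158 CPM for control and 2356 ± 54.3 CPM for hypoxia (SD, n = 3 each). miR-25-3p made up 49.8%, 49.4% and 49.1% of it in control A, B and C, against 56.8%, 50.9% and 47.7% in hypoxia A, B and C. The control libraries lay within 1 percentage point of each other, and the hypoxia libraries fell on both sides of them. The difference of 2.32 percentage points was smaller than the hypoxia SD of 4.63 (exact permutation p = 0.6), and without hypoxia A it was -0.18.

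The other large contributor was miR-92a-3p, which is made by the miR-17-92 and the miR-106a-363 clusters alike, with 43.3% on average. It stood at 1176, 1024 and 1188 CPM in control A, B and C, against 922, 1011 and 1008 CPM in hypoxia A, B and C. All 3 hypoxia libraries were lower than the control ones, where 5.49% of tested miRNAs were lower in that way. The margin was thin, at 1024 CPM in control B against 1011 CPM in hypoxia B, and it rested on TMM scaling. Control B had the smallest TMM factor (0.8959). As an unscaled share of known miRNA counts, miR-92a-3p was lower in control B than in every hypoxia library, so the groups then overlapped. The log2 fold change of -0.20 (SE 0.15) was not called (edgeR adjusted p = 0.92, and 0.35 with the replicate block). miR-32-5p gave 5.63% of the pool and miR-92b-3p 0.432%, with log2 fold changes of 0.14 and 0.21, neither of them called. miR-363-3p had at most 5 counts in a library, and miR-367-3p, a miRNA of pluripotent cells, was at 0 counts, which allows up to 0.244 CPM in the shallowest library.

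**Figure D4:**
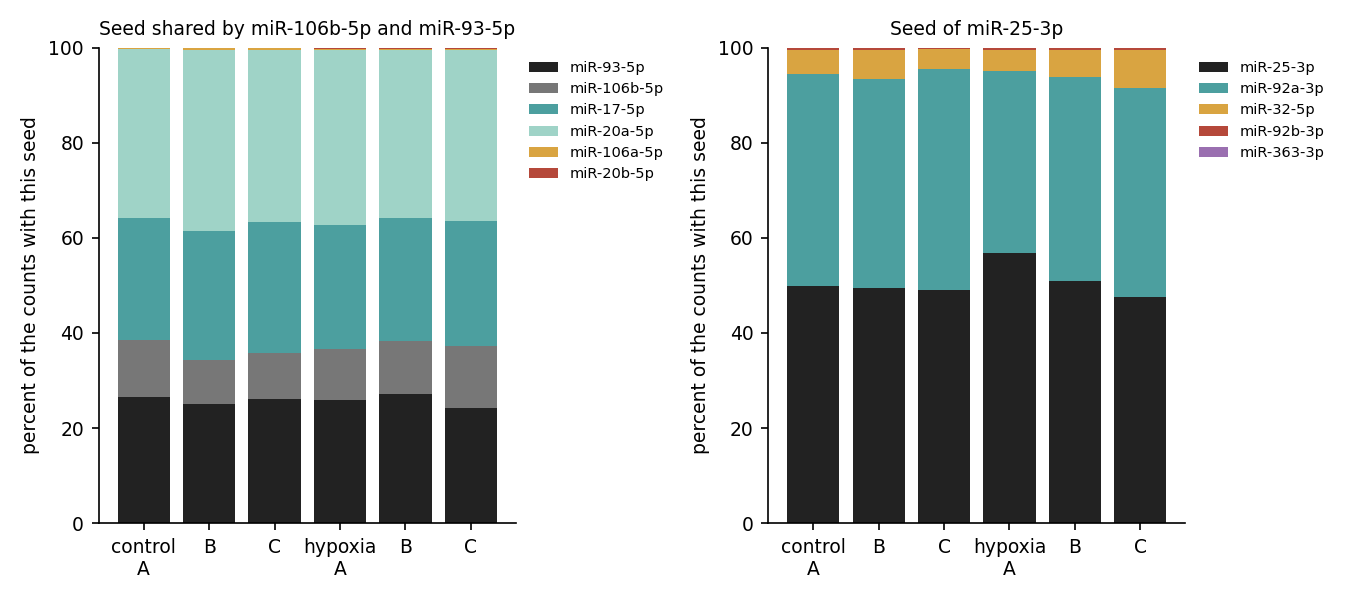
Percent of the counts with a given seed held by each miRNA, for each library. Left, the seed shared by miR-106b-5p and miR-93-5p, with the cluster members in black and dark grey holding 34.3% to 38.5%. Right, the seed of miR-25-3p, which in black holds 47.7% to 56.8% and is highest in hypoxia A.

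The paralog clusters were set beside the cluster as whole units. With the shared arms miR-92a-3p and miR-19b-3p assigned to miR-17-92, the 12 arms of that cluster summed to 3237 CPM on average. The 9 arms taken for miR-106a-363, with none of miR-19b among them, summed to 10.3 CPM. The Mcm7 cluster was lower than miR-17-92 in all 6 libraries, at 0.636 to 0.799 of its counts. It exceeded the 9 arms of miR-106a-363 by 188-fold to 338-fold. Both comparisons rest on that assignment. The log2 ratio to miR-17-92 was -0.34, -0.53 and -0.54 in control A, B and C, against -0.32, -0.35 and -0.65 in hypoxia A, B and C. The group means differed by 0.03 (exact permutation p = 0.9), with a sign that turned when control B, control C, hypoxia A or hypoxia B was left out. For miR-106a-363 the difference was -0.34 (exact permutation p = 0.2), and -0.16 without control A.

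Of the 12 miR-17-92 arms, 11 passed the filter, and 0 were called in either fit. Their log2 fold changes ran from -0.20 (miR-92a-3p) to 0.26 (miR-19b-3p), with 8 of 11 above 0 (9 of 11 under scaling to library size only) and a median of 0.12. The median rested on single libraries, at 0.0058 without control A (6 of 11 above 0), 0.021 without control B (6 of 11), 0.20 without hypoxia A (7 of 11) and -0.09 without hypoxia C (5 of 11). Of the 9 miR-106a-363 arms, 5 were at 0 counts throughout and 2 passed the filter, miR-106a-5p at 0.28 (SE 0.28) and miR-20b-5p. Adjusted over the 11 comparisons of ratios and shares described here, every exact permutation p was between 0.73 and 0.9.

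**Figure D5:**
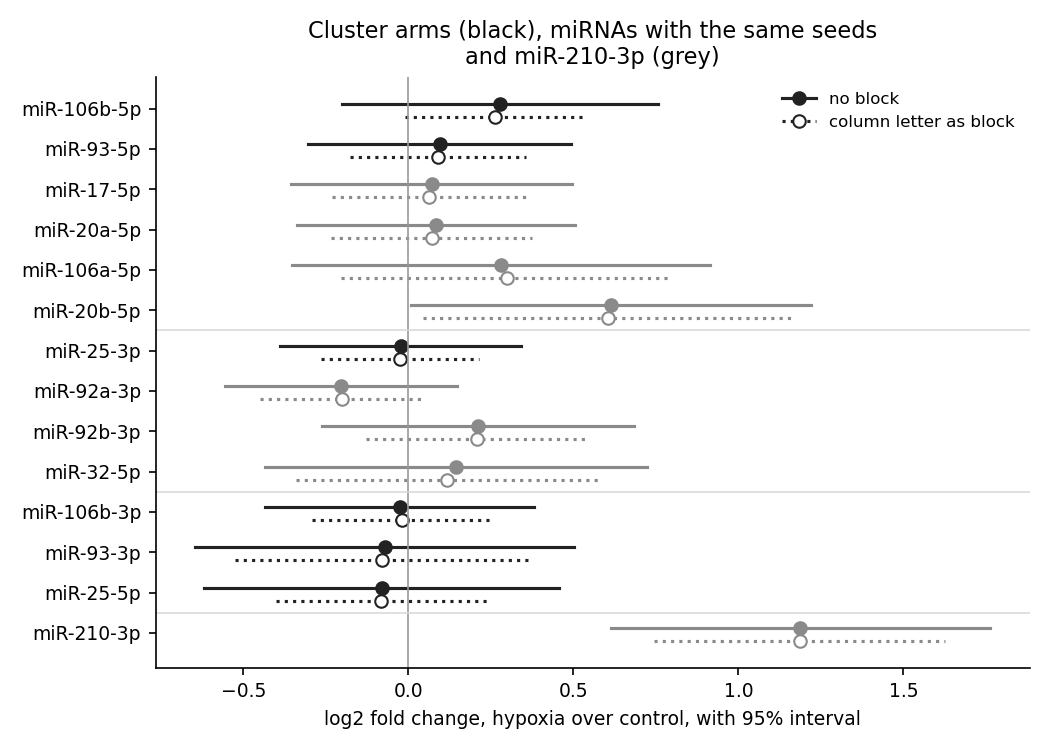
Log2 fold change of hypoxia over control with 95% interval for the cluster arms (black), for the tested miRNAs with the same seeds and for miR-210-3p (grey). Filled points are without a block, and open points with the column letter as a replicate block. All 6 cluster intervals include 0, whereas that of miR-210-3p starts at 0.61 without the block. The interval of miR-20b-5p, which was not called, also lies above 0, starting at 0.0067 without the block and 0.044 with it.

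Likeness of profiles was measured as the root mean square difference of log2 CPM over the 6 libraries, each miRNA centred on its own mean, among 361 other tested miRNAs with at least 10 CPM. Nearest to miR-93-5p were miR-17-5p (0.076), miR-20a-5p (0.082) and miR-669c-5p (0.091), against a median of 0.29 over all. The first 2 of these carry its seed but lie on another chromosome. Whether reads shared in part between these similar sequences add to the likeness was not tested. Its own neighbours were farther away, with miR-25-3p at place 14 (0.13), miR-106b-3p at place 28 (0.15) and miR-106b-5p at place 59 (0.19). miR-25-5p was at place 122 (0.24). Other miR-17-92 arms ranged from miR-18a-5p at place 57 (0.19) to miR-92a-1-5p at place 291 (0.44). Among these, miR-19b-3p (place 244, 0.38) and miR-19a-3p (place 287, 0.44) were also beyond the median, so miR-93-5p did not follow that cluster as a whole.

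Nearest to miR-25-3p were miR-322-3p (0.058), miR-345-3p (0.060) and miR-181d-5p (0.075), with miR-106b-3p at place 9 (0.10) and miR-93-5p at place 16 (0.13). miR-106b-5p was at place 144 (0.26) from it and miR-25-5p at place 161 (0.27). Nearest to miR-106b-5p were miR-18a-5p of the miR-17-92 cluster (0.10), miR-181c-3p (0.11) and miR-669d-5p (0.12), while miR-19a-3p of that cluster was at place 223 (0.39). Of its own intron, miR-93-5p was at place 28 (0.19), its own 3p arm at place 55 (0.23), miR-25-5p at place 69 (0.24) and miR-25-3p at place 86 (0.26). These are descriptions over 6 libraries that share their scaling, and profiles with little variation lie close to each other whatever their source.

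Markers of other cell types were read from the same libraries. Of 24 marker arms, 19 were tested and 0 were called with or without the block. Over all tested miRNAs edgeR called 2.26% with the block and 0% without it, so few calls could occur among 19 arms. Summed blood markers ran from 49.4 to 55.0 CPM in control and from 42.6 to 56.8 CPM in hypoxia. Summed fibroblast and smooth muscle markers ran from 26075 to 57426 CPM in control and from 26575 to 50352 CPM in hypoxia. Summed epithelial markers ran from 4.29 to 9.04 CPM over all libraries. Summed cardiomyocyte markers ran from 77.2 to 172 CPM in control and from 104 to 176 CPM in hypoxia, none of them at 0 counts throughout. The 4 tested cardiomyocyte arms all had log2 fold changes above 0 (median 0.54). In the other lists 3 of 5 fibroblast and smooth muscle, 3 of 5 blood, 1 of 3 epithelial and 1 of 2 endothelial arms did. Together these were 12 of 19, where 51.2% of all tested miRNAs were above 0. The part of any of these cell types in the cluster's values was not tested.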

How the data were processed

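Small RNA was sequenced from 6 libraries of mouse c-kit+ heart cells, 3 control and 3 hypoxia. The authors deposited read counts per known mature miRNA, not normalized. Named in the submitters' processing notes, without roles, are the build mm10, DESeq2 and bcl2fastq 2.0. The aligner and the counter are not given in the sources. A deposited table of predicted miRNAs was not used here.

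Libraries were grouped by the digit in the column name, as described above, and totals are given there. Counts were tested with edgeR 4.0.16 (filterByExpr, TMM scaling, quasi-likelihood test, R 4.3.3), with Benjamini-Hochberg adjustment over 619 tested miRNAs and a threshold of 0.05. Levels are CPM on TMM-adjusted library sizes. Ratios and shares used two-sided exact permutation tests over libraries (scipy 1.17.1, smallest p 0.1) and, over same-lettered pairs, exact sign-flip tests (smallest p 0.25), adjusted over 11 comparisons.

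Same-lettered libraries deviated together across miRNAs (r = 0.52 for A, 0.43 for B and 0.28 for C, all over the limit of 0.1). For unlike letters r was -0.44 to 0.12, and control C with hypoxia B (0.12) was also over the limit. Deviations were taken from the mean of each group's 3 libraries and so sum to 0, which by itself lowers unlike-letter values when same-letter ones are high. The letter was therefore also used as a replicate block. The labels do not state this pairing, which rests on column names and values.

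The arms described are the 6 members, all miRNAs sharing a member's seed, the arms of the paralog clusters, 5 lists of cell type markers and the 3 miRNAs nearest in profile. miR-210-3p was added because the title names it. Members and lists were chosen with earlier results of these data known. Alternatives were other scalings (RLE, upper quartile, library size only), no filter, DESeq2 1.42.0, limma-voom 3.58.1, the block, another pseudocount or seed length, the more abundant arm only, another total, and leaving out libraries or pairs.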

Additional observations from a re-analysis of the deposited data

How the results depend on the processing

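Over all known miRNAs, edgeR called 0 of 619 (42 at an unadjusted p below 0.05) and limma-voom 0 of 619 (43). DESeq2, fitted without the filter on 1322 miRNAs, called 1, and edgeR without an expression filter called 4 of 1322. With the replicate block edgeR called 14 of 619 (6 higher and 8 lower) and DESeq2 36 of the larger set of 1322 (22 higher and 14 lower). Under the block, leaving out pair B gave 23 calls and leaving out pair A or C gave 0. Leaving out single libraries gave 0 to 0.

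None of the 190 alternative values for the 6 arms and the 11 ratios and shares passed its test, which for the ratios and shares says nothing of stability, since 3 libraries a group cannot give a permutation p below 0.1. Direction was kept in 164 and turned in 26. miR-106b-5p stayed above 0 in 17 of 17 alternatives, from 0.11 to 0.40 (log2), with adjusted p from 0.25 to 1.00 across edgeR, DESeq2 and limma-voom. Scaling to library size only turned miR-106b-3p to 0.031, miR-93-3p to 0.0067 and miR-25-3p to 0.041. Under the replicate block, leaving out pair A gave 0.038 for miR-106b-3p and -0.037 for miR-93-5p, leaving out pair B gave 0.13 for miR-93-3p, and leaving out pair C gave 0.020 for miR-106b-3p and 0.050 for miR-25-3p. The block changed the call of no arm. For the ratios and shares the paired sign-flip test cannot fall below 0.25, so it could make no call.

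Leaving out single libraries gave log2 fold changes of -0.14 to 0.0084 for miR-106b-3p, -0.013 to 0.15 for miR-93-5p, -0.25 to 0.055 for miR-93-3p, -0.28 to 0.050 for miR-25-5p and -0.12 to 0.022 for miR-25-3p. It gave log2 differences of -0.29 to 0.11 for the miR-25 arm ratio, 0.063 to 0.33 for that of miR-93, -0.15 to 0.026 for miR-93 over miR-106b, -0.19 to -0.043 for miR-25 over miR-93, -0.45 to -0.16 for the cluster over miR-106a-363 and -0.031 to 0.13 for the cluster over miR-17-92. The cluster's share moved between -0.00047 and 0.0334 percentage points, and the share of miR-25-3p in its seed pool between -0.184 and 4.38. The causes were not tested. By depth, miR-93-3p, at 76 to 121 reads, had the widest interval.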
